A study of Homo sapiens with 16 samples.

Results

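Among the sites of RNA pseudouridine listed for HEK293T cells, 792 of 13398 (5.91%) carried the annotation Promoter or 5'UTR in a protein-coding gene. They were chosen by that annotation and the gene type alone, not by any measured value. Of them, 656 were annotated Promoter and 136 were annotated 5'UTR. The Promoter sites were 54.1% of the 1213 Promoter sites of all gene types, whereas the 5'UTR sites were 98.6% of 138. The width of the stretch that the word Promoter covered was not stated.

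The study used PRAISE-seq, in which RNA is treated with sulfite and bisulfite so that a pseudouridine is read as a deletion. HEK293T is a line derived from human embryonic kidney, and HuCCT1 is a line derived from human bile duct carcinoma. The 16 libraries comprised 2 treated and 2 untreated libraries of HEK293T controls, 3 treated and 3 untreated libraries of HEK293T cells lacking PUS1, PUS7 and RPUSD4 together (PUS TKO, used in the study as a negative control), and 3 treated and 3 input libraries of HuCCT1. RNA was depleted of ribosomal RNA before treatment in the protocol of the labels. The site list gives 1 value per site and no value per library, so neither replicate spread nor the response to the knockout can be given, and the labels do not say which libraries a value was pooled from.

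Pseudouridine is an isomer of uridine made after transcription by pseudouridine synthases, several of which act on nascent RNA in the nucleus. TRUB1 acts on the TΨC arm of tRNA and on similar hairpins in mRNA, PUS7 on a short sequence around the site, and PUS1 on tRNA and on many structured mRNA sites. RNA made at a promoter includes the first bases of the mRNA itself and short transcripts that leave the promoter in the opposite direction, and the 5'UTR is the stretch over which the small ribosomal subunit scans before it starts translation.

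The deletion level is the share of the reads covering a uridine that carry the deletion. For sites of high level off chromosome 8, the 11 bases around the site in the deposited table are given here in the DNA alphabet, 5′ to 3′ on the strand of the site, with the listed uridine in capitals. The first 8 are annotated Promoter and the last 6 are annotated 5'UTR.
H3C4: gcagcTggcca
EMID1: cgcggTcgccg
COA4: tctgcTttaag
BICD1: gaattTgggag
IREB2: taggtTacttt
CRLF3: catgaTtccaa
SLC25A11: gccggTgagtt
THPO: cccccTggtcc
ZC3H11A: ttcctTgcaga
NRIP1: aggaaTatatt
FYN: taaatTcctgc
PIGV: aacttTgcctt
GPR137: gccccTcgcag
MTA2: cctctTcaaac
The contexts ranged from GC-rich, as in EMID1, to AT-rich, as in NRIP1.

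The highest Promoter level was in H3C4, a gene of the replication-dependent histone H3 family, with 14 deletions in 20 reads (70.0%, 95% Clopper-Pearson interval 45.7 to 88.1) at chr6:26197189 on the minus strand. The site lay 97 nt past the nearest RefSeq start of the gene. H3 genes are near-identical copies, so reads could be shared between them. Its interval overlapped those of the Promoter sites described next, so these sites have no order beyond counting error.

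Levels of at least 50% were also found at the 4 Promoter sites that follow. EMID1, which encodes a secreted matrix protein, had 8 deletions in 15 reads (53.3%, 26.6 to 78.7). COA4, a factor for assembly of cytochrome c oxidase, had 9 in 17 (52.9%, 27.8 to 77.0). BICD1, an adaptor of the dynein motor, had 10 in 20 (50.0%, 27.2 to 72.8), and its site lay 907 nt past a start. Each of these intervals is wide, because 20 reads or fewer covered the base. IREB2, an iron regulatory protein, had 9 in 18 (50.0%, 26.0 to 74.0) at a base 71.9% of the way along the gene.

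The best covered of the 10 highest Promoter sites was that of CFAP418, a gene of cilia, with 54 deletions in 117 reads (46.2%, 36.9 to 55.6). That base lies inside the serine tRNA gene TRS-AGA2-5, so the site is assigned to the coding gene by position only. CRLF3, a cytokine receptor-like protein, had 13 in 29 (44.8%, 26.4 to 64.3). SLC25A11, the mitochondrial oxoglutarate carrier, and THPO, thrombopoietin, both had 8 in 18 (44.4%, 21.5 to 69.2).

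The highest level among the 136 5'UTR sites was below that among the 656 Promoter sites, a larger set. ZC3H11A, a zinc finger protein of mRNA export, had 7 deletions in 17 reads (41.2%, 18.4 to 67.1), and NRIP1, a corepressor of nuclear receptors, had 7 in 20 (35.0%, 15.4 to 59.2). FYN, a kinase of the Src family, had 16 in 47 (34.0%, 20.9 to 49.3), which made it the best covered of the leading 5'UTR sites. PIGV, which adds mannose to the GPI anchor, had 5 in 18 (27.8%, 9.69 to 53.5). The remaining 6 of the 10 highest were the lysosomal membrane protein GPR137 (23.8%, 10 of 42), MTA2 of the NuRD complex (23.8%, 5 of 21), the butyrophilin BTN3A1 (23.5%, 4 of 17), the transcription factor ZFHX3 (21.9%, 7 of 32), STMN1, which destabilises microtubules (21.7%, 5 of 23), and the oxidase of the endoplasmic reticulum ERO1B (21.4%, 6 of 28). Of these 10 highest, the sites of FYN, MTA2 and STMN1 lay on the strand opposite to the gene.

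**Figure D1:**
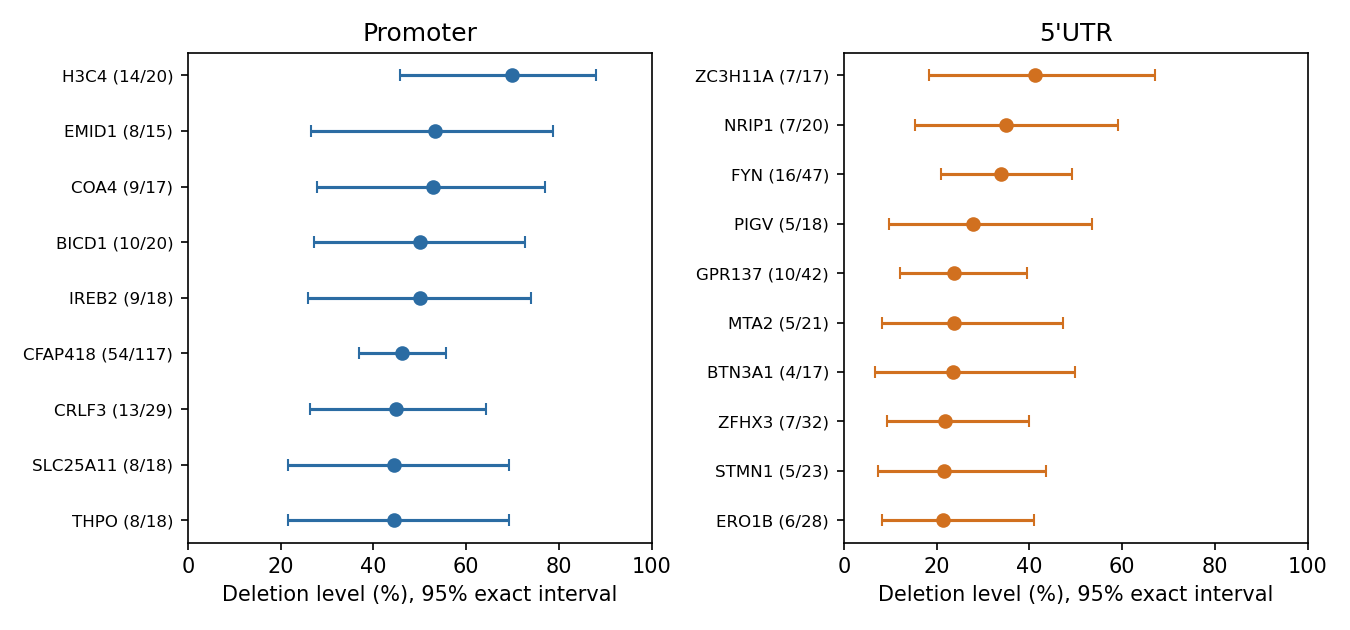
Deletion level in percent of 9 of the 10 highest Promoter sites (left) and the 10 highest 5'UTR sites (right), with deletion reads over coverage in brackets and bars for the 95% exact interval of each site. The Promoter sites range from 44.4% to 70.0% and the 5'UTR sites from 21.4% to 41.2%, and the bars of neighbouring sites overlap.

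The median level was 10.8% over the Promoter sites (quartiles 7.3 and 15.8, n = 656 sites) and 9.65% over the 5'UTR sites (7.25 and 14.6, n = 136). Levels ran from 5.0% to 70.0% and from 5.1% to 41.2%. Coverage had a median of 38 reads in both sets, with ranges of 15 to 3773 and 15 to 153. The list holds no site under 5.0%, 15 reads of coverage or 3 deletion reads, so at a coverage of 15 the lowest level that can be listed is 20%. Of the Promoter sites 254 (38.7%) and of the 5'UTR sites 55 (40.4%) had exactly 3 deletion reads, and 12 and 2 had 16 or more. A site's interval was 22.4 percentage points wide at the median in the Promoter set and 20.5 in the 5'UTR set, and these intervals cover counting error only.

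Since the limit of 3 deletion reads ties the lowest listed level to coverage, levels were compared within bands of coverage. At 15 to 19 reads the median was 22.2% over 79 Promoter sites and 20% over 10 5'UTR sites. At 60 reads or more it was 6.7% over 141 and 6.75% over 34. In exons and introns of coding genes the medians in these bands were 21.1% and 22.2%, then 6.6% and 6.7%. Within each band the 4 annotations lay close together, with quartile ranges that overlapped.

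**Figure D2:**
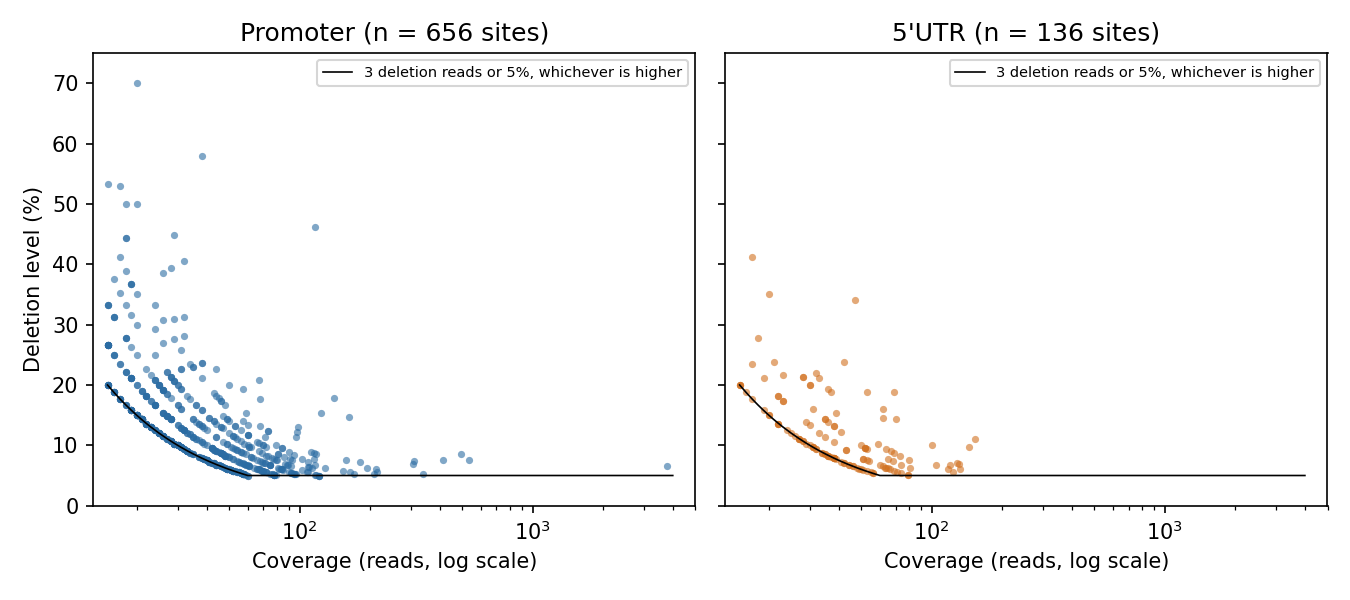
Deletion level in percent against coverage in reads (log scale) for each Promoter site (left, n = 656) and each 5'UTR site (right, n = 136), with the lowest level that 3 deletion reads or 5% allow as a line. The line bounds the points from below, and 8 of the 10 highest Promoter levels stand at coverages of 15 to 29 reads, while the CFAP418 site had 117 reads.

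**Figure D3:**
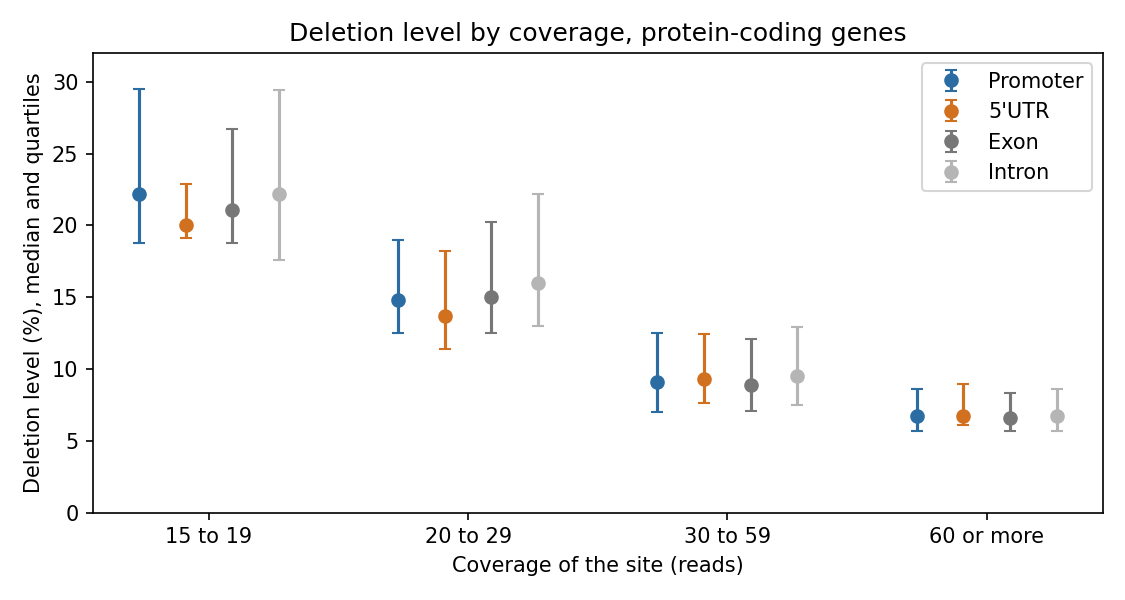
Median deletion level in percent (points) with quartiles (bars) in 4 bands of coverage for Promoter, 5'UTR, Exon and Intron sites of protein-coding genes. The medians fall from 20% to 22.2% at 15 to 19 reads to 6.6% to 6.75% at 60 or more, with the annotations side by side in each band.

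A level of at least 20% was found at 106 Promoter sites (16.2%, 13.4 to 19.2) and 18 5'UTR sites (13.2%, 8.04 to 20.1), beside 21.4% of all listed sites. The difference of 2.92 percentage points between the annotations had a 95% Newcombe interval of -4.29 to 8.5, which includes 0. Against Intron sites of coding genes (27.4%) the Promoter share was lower by 11.3 points (interval of the difference -14.1 to -8.07), and against Exon sites (11.7%) it was higher by 4.5 points (1.45 to 7.81). The share moved with coverage, being 1.42% over Promoter sites with at least 60 reads, and with the minimum of deletion reads, being 24.6% over those with at least 4. Among sites with at least 60 reads a level of at least 10% was found at 16.3% of Promoter and 16.7% of Intron sites. Levels of at least 30% were found at 34 Promoter sites (5.18%) and 3 5'UTR sites (2.21%), beside 7.31% of all listed sites. That difference of 2.98 points between the annotations had an interval of -1.35 to 5.43, which includes 0.

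Among the 5 Promoter sites with the most deletion reads, that of CFAP418 had 46.2% (54 of 117), and the others had modest levels. The Promoter site of CNOT10, a subunit of the CCR4-NOT deadenylase, had 249 deletions in 3773 reads (6.6%, 5.83 to 7.44). It lies on the strand opposite to the gene, inside the RefSeq gene LOC124905595, and its context gaagtTtctct is listed 8 times in the table, among others in U3 and SNORD3E, copies of the U3 small nucleolar RNA. KNL1, a kinetochore scaffold, had 42 in 494 (8.5%, 6.2 to 11.3) inside the serine tRNA gene TRS-GCT4-2. RPL18, a protein of the large ribosomal subunit, had 40 in 536 (7.5%, 5.38 to 10.0) at 99.3% of the length of its gene. CDK5RAP2, a centrosomal protein, had 31 in 412 (7.5%, 5.17 to 10.5) and lay 105 nt past its start.

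The 5'UTR sites with the most deletion reads included those of FYN (34.0%, 16 of 47) and GPR137 (23.8%, 10 of 42), described above. In the same set the site of PCDH10, a protocadherin, had 17 deletions in 153 reads (11.1%, 6.61 to 17.2). CCP110, a centriolar protein, had 14 in 144 (9.7%, 5.42 to 15.8) and PALLD, an actin-binding protein, had 13 in 69 (18.8%, 10.4 to 30.1). None of the 3 contexts was listed more than once: gacatTaagag for PCDH10, gactgTgggaa for CCP110 and cccctTcccgc for PALLD.

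The sites fell in 679 genes, 569 with a Promoter site and 120 with a 5'UTR site. Of the 20056 protein-coding genes of RefSeq, 660 had a member site (3.29%), 552 a Promoter site (2.75%) and 118 a 5'UTR site (0.588%). Of the 679 genes, 581 had 1 site, 85 had 2, 11 had 3 and 2 had 4. A total of 368 genes (54.2%) also had a site of another annotation in the list, 277 of them in an intron, 115 in an exon and 96 in a 3'UTR. The same share was not taken over all genes with a listed site.

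Both annotations occurred in 10 genes. In BRD2, a bromodomain reader of acetylated histones, the 5'UTR site had 5 deletions in 81 reads (6.2%, 2.03 to 13.8) at 12 nt past a start, and the Promoter site had 3 in 15 (20%, 4.33 to 48.1) on the opposite strand. STIM1, the calcium sensor of the endoplasmic reticulum, had 14.8% (4 of 27) at its Promoter site and 15.0% (3 of 20) at its 5'UTR site. ALG13, of protein glycosylation, had 16.7% (5 of 30) and 9.4% (3 of 32). RNF217, an E3 ubiquitin ligase, had 18.6% (8 of 43) and 10.0% (3 of 30). The intervals of each pair overlapped.

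KMT2A, a histone H3 methyltransferase, had 7.7% (3 of 39) at the Promoter site and 7.9% (3 of 38) at the 5'UTR site, and GNB1, a G protein subunit, had 7.0% (3 of 43) and 6.5% (4 of 62). In the Sin3 complex component SINHCAF the 2 levels were 5.4% (5 of 93) and 5.9% (3 of 51). PGRMC2, a membrane haem-binding protein, had 15.0% (3 of 20) at a Promoter site on the opposite strand and 11.5% (3 of 26) at the 5'UTR site. SRPK2, a kinase of splicing factors, had a Promoter site at 14.3% on the opposite strand and 5'UTR sites at 7.9% and 7.7% on neighbouring bases.

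Several sites could fall in 1 gene with unequal levels. BICD1 had 4 Promoter sites. The site 907 nt past the start had 50.0%, another at 387 nt had 12 deletions in 159 reads (7.5%, 3.96 to 12.8), and neighbouring bases far along the gene had 5.4% and 5.3%. The intervals at 907 nt and 387 nt did not overlap. In ZC3H11A the 3 5'UTR sites had 41.2%, 10.0% (10 of 100, 4.9 to 17.6) and 6.5% (3 of 46, 1.37 to 17.9), and the interval of the first lay above both others. UBAP2, a ubiquitin-associated protein, had 4 Promoter sites at 15.8%, 15.8%, 9.0% and 6.0%, all with intervals that overlapped.

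Other genes with 3 sites were ANKDD1A, DENND11, NIN, SRPK2, UBE2D3, UFD1, WARS2, ZGRF1 and ZNF28. Their highest levels ran from 6.9% in NIN, a centrosomal protein, to 23.5% in ZGRF1, a helicase of DNA repair. Across the whole set 40 pairs of sites lay on adjacent bases, 31 in Promoter and 9 in 5'UTR, and 38 of these pairs had the same number of deletion reads. Whether the same reads were counted at both bases was not tested.

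Position was taken from RefSeq, which gave a start and a strand for 517 Promoter sites and 111 5'UTR sites. Only 150 Promoter sites (29%, 25.1 to 33.1) and 28 5'UTR sites (25.2%, 17.5 to 34.4) lay within 1000 nt of a RefSeq start of their gene. In exons and introns of coding genes the same share was 2.42% and 2.55%, so the Promoter share was higher than that of introns by 26.5 points (22.7 to 30.5) and the 5'UTR share by 22.7 points (15.5 to 31.5). This difference follows from what the annotations mean. Inside the gene and more than 1000 nt from any of its RefSeq starts lay 350 Promoter sites (67.7%) and 82 5'UTR sites (73.9%). Distances ran along the genome, introns included, and starts outside RefSeq were not used. Whether these sites lie near starts of other transcripts was not tested.

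Promoter sites differed from 5'UTR sites at both ends of the gene. Upstream of the gene lay 41 Promoter sites (7.93%) and 1 5'UTR site (0.901%), a difference of 7.03 points (2.52 to 9.78). The upstream difference follows from what the annotations mean. In the last 20% of the gene lay 120 Promoter sites (23.2%, 19.6 to 27.1) and 14 5'UTR sites (12.6%, 7.07 to 20.3), a difference of 10.6 points (2.4 to 16.9). Against introns the Promoter share there was higher by 10.7 points (7.14 to 14.6), and against exons it was lower, with a difference of -4.69 points (-8.82 to -0.275). Examples at the far end were the RPL18 site, that of SNX10, an endosomal sorting nexin (22.2%, 6 of 27, at 97.1% of the gene), and that of RETREG3, a receptor of endoplasmic reticulum turnover (15.3%, 9 of 59, at 99.8%). Inside another RefSeq gene on either strand lay 123 of 656 Promoter sites (18.8%, 15.8 to 22.0) and 17 of 136 5'UTR sites (12.5%, 7.45 to 19.3). This share was not taken over all listed sites. For sites on the strand of their gene, nearness to starts of other genes was not tested.

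Close to starts the Promoter sites were not spread evenly. Of the 150 within 1000 nt, 54 lay before the nearest start, 58 in the first 200 nt after it and 38 beyond. All 28 of the 5'UTR sites within this distance lay after a start, which follows from what the annotation means. Only 2 of these 28 lay in the first 200 nt.

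**Figure D4:**
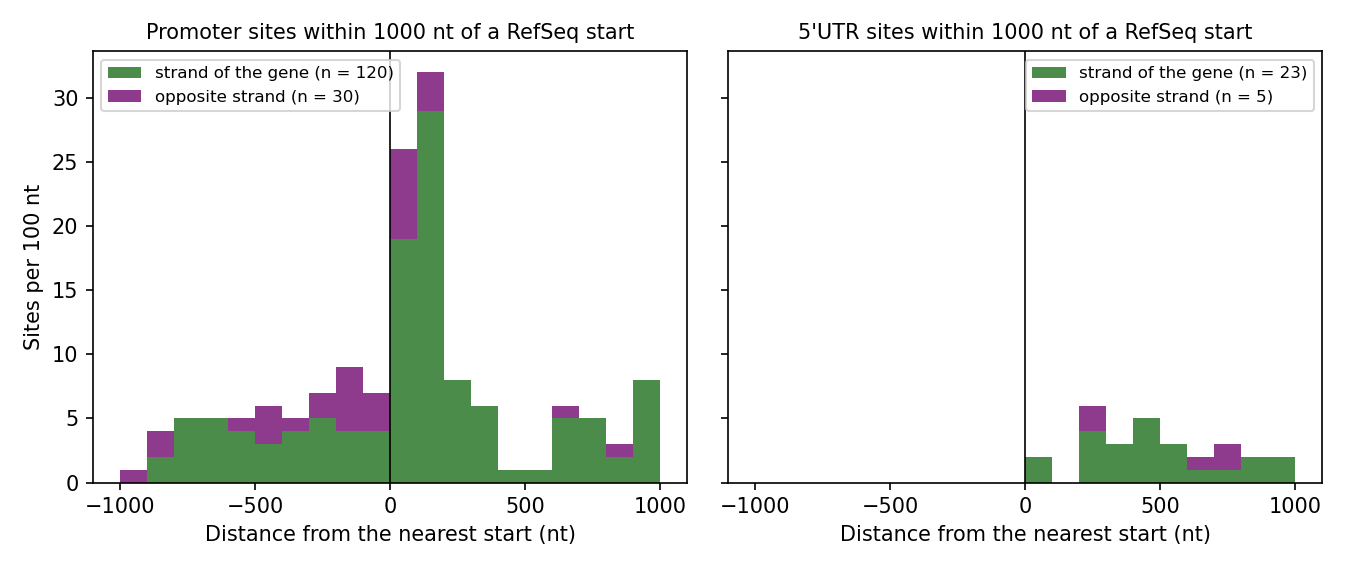
Number of Promoter sites (left) and 5'UTR sites (right) in bins of 100 nt by distance from the nearest RefSeq start, negative before the start, stacked by whether the site lies on the strand of its gene or on the opposite strand. Promoter sites peak in the first 200 nt after the start with 58 sites, and 18 of the 30 opposite-strand Promoter sites lie before it.

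The strand was that of the gene at 470 of 517 Promoter sites (90.9%, 88.1 to 93.2) and 97 of 111 5'UTR sites (87.4%, 79.7 to 92.9), a difference of 3.52 points (-2.16 to 11.3). For Promoter sites the share was below that of introns by 4.95 points (-7.79 to -2.68 for Promoter minus Intron), while against exons (91.3%) the difference was -0.381 points with an interval of -3.46 to 2.28. The 47 Promoter sites on the opposite strand had a median position 88 nt before the nearest start, and 30 of them lay within 1000 nt of it. The 14 opposite-strand 5'UTR sites had a median position 1635 nt after the start. Of the 47, 4 lay within 1000 nt of the start of another RefSeq gene on their own strand, and none of the 4 was downstream of that start. Beyond that distance, the sites of DPP9, NFKB1, B3GNTL1, WBP4 and BRD2 lay 1004 to 1717 nt downstream of such a start. Each of these sites lay inside the other gene. Inside tRNA genes lay 5 of the 47, that of DPP9 among them.

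Opposite-strand Promoter sites had more GC around them. A CpG was present in the context of 17 of 47 (36.2%) against 72 of 470 on the strand of the gene (15.3%), a difference of 20.9 points (8.15 to 35.5), and outside tRNA genes the difference was 18.6 points (5.75 to 34.0). The mean GC content of the 10 flanking bases was 57.0% ± 21.6 (SD, n = 47 sites) against 45.5% ± 19.2 (n = 470). Among sites within 1000 nt of a start the CpG shares were 46.7% and 26.7%, a difference of 20 points (1.48 to 38.6), and outside tRNA genes that difference was 17.5 points with an interval that included 0 (-1.29 to 37.5). Nearness to the start went with CpG on the gene's own strand as well, with 32 of 120 sites within 1000 nt (26.7%) against 40 of 350 farther away (11.4%), a difference of 15.2 points (7.21 to 24.3). Levels of at least 20% were equally frequent on both strands, at 17.0% each (difference 0.0, -8.92 to 13.5).

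The opposite-strand sites of highest level lay before starts of 3 genes. For THPO the site had 8 deletions in 18 reads (44.4%) at 122 nt before the start, and 244 nt before the start of CHRD, which lies on the strand of the site. In PIK3C2A, a phosphoinositide kinase, 7 of 17 reads carried the deletion (41.2%, 18.4 to 67.1) at 551 nt before the start. SPHK2, a sphingosine kinase, had 11 in 28 (39.3%, 21.5 to 59.4) at 29 nt before a start. In the 5'UTR set the FYN site, with 16 of 47, was the highest on the opposite strand and lay 39020 nt from the nearest start.

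Within the RefSeq promoter windows, which run from 250 bases before to 50 after a start, lay 28 sites, 27 annotated Promoter and 1 annotated 5'UTR. The deposited context was found at the listed base in all 28. Of these, 20 lay before the start and 8 at or after it, and 11 were on the opposite strand, 9 of those before the start. The GC content of the windows ran from 38.0% to 82.3%, with a median of 59.5%. The following 21-base stretches of RefSeq (GRCh38.p14), read on the strand of the site with the listed uridine in capitals, are of 3 sites before and 3 sites after a start, to show the sequence around both kinds.
THPO, chr3:184379800-184379820, plus strand: tcgcgcccccTggtccctccc
SPHK2, chr19:48624990-48625010, minus strand: gccctctcccTgccctctgcc
EN2, chr7:155457951-155457971, minus strand: gctgcgcgcaTgcaggcagcg
EIF4E2, chr2:232550698-232550718, minus strand: gccgccgctgTcgccactgcc
BRD2, chr6:32971597-32971617, plus strand: tcttcgctgcTgctgccttac
PSMA4, chr15:78540815-78540835, plus strand: gcttccgtccTcaggagttcg
The first 3 lie on the strand opposite to the gene and before the start. The homeobox gene EN2 had 5 deletions in 19 reads (26.3%, 9.15 to 51.2) at 168 nt before its start. EIF4E2, a cap-binding homologue, had 3 in 17 (17.6%) on the opposite strand at 19 nt after the start, and PSMA4, a proteasome subunit, had 4 in 79 (5.1%) on its own strand at 39 nt after the start.

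GC content and CpG differed between both annotations and introns. The flanks had a mean GC content of 46.6% ± 19.9 (SD, n = 656 sites) in Promoter and 47.1% ± 19.7 (n = 136) in 5'UTR, beside 48.7% ± 15.7 in exons and 39.8% ± 17.0 in introns. A CpG was present in the context at 118 Promoter sites (18%, 15.1 to 21.1) and 19 5'UTR sites (14%, 8.63 to 21.0), beside 15.5% in exons and 6.5% in introns. Against introns the Promoter share was higher by 11.5 points (8.66 to 14.7) and the 5'UTR share by 7.47 points (2.59 to 14.3). Between the annotations the difference of 4.02 points had an interval of -3.34 to 9.78. Flanks with at least 8 pyrimidines among the 10 bases were found at 19.4% of Promoter and 14.7% of 5'UTR sites, and the Promoter share was above that of exons (9.92%) by 9.44 points (6.25 to 12.9). Against introns (21.1%) the differences were -1.74 points (-4.77 to 1.62) for Promoter and -6.39 points (-11.5 to 0.604) for 5'UTR, with intervals that include 0.

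**Figure D5:**
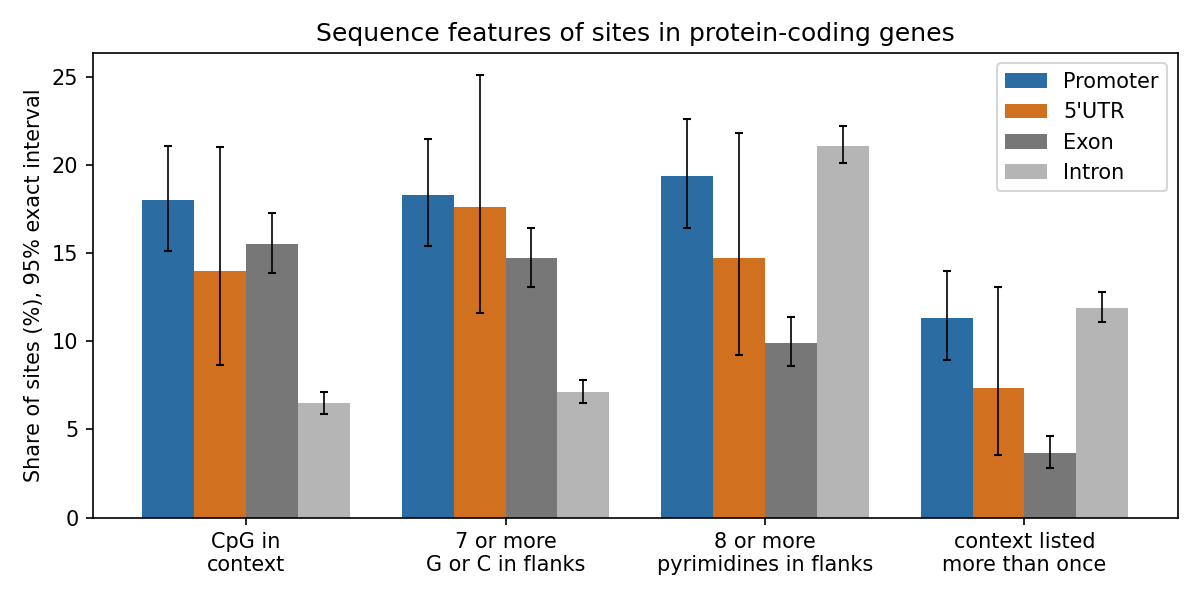
Share of sites in percent with a CpG in the 11-base context, with at least 7 G or C or at least 8 pyrimidines among the 10 flanking bases, and with a context listed more than once, for Promoter, 5'UTR, Exon and Intron sites of protein-coding genes, with 95% exact intervals. Promoter and 5'UTR bars stand near those of exons for CpG and GC, with 18% and 14% for CpG against 6.5% in introns.

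The listed uridine lay in a run of at least 2 uridines at 364 Promoter sites (55.5%) and 78 5'UTR sites (57.4%). Within a run the listed base depended on the strand. On the plus strand it was the last uridine at 161 of 180 Promoter sites (89.4%) and 34 of 40 5'UTR sites (85.0%), and on the minus strand the first uridine at 151 of 184 (82.1%) and 28 of 38 (73.7%). In both cases that is the end of the run with the higher coordinate. A deletion in a run cannot be assigned to 1 of its bases, so motifs were counted at the listed base and at any uridine of the run.

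The letters searched for TRUB1 were GUUCNA with the site at the second U, on the strand of the site. They were found at 9 Promoter sites (1.37%, 0.629 to 2.59) and 1 5'UTR site (0.735%), beside 0.746% of all listed sites. At any uridine of the run the counts were 17 (2.59%, 1.52 to 4.12) and 2 (1.47%), beside 1.56%. Of these Promoter sites 5 of the 9 and 8 of the 17 lay inside tRNA genes. The PUS7 letters, UNUAA or UNUAG with the site at the second of the written U, were found at 30 Promoter sites (4.57%, 3.11 to 6.46) and 7 5'UTR sites (5.15%, 2.09 to 10.3), beside 4.72% of all sites. With any uridine of the run they were found at 48 (7.32%) and 12 (8.82%), beside 7.11%. The PUS1 letters were A or C, then A or G, then UAA or UAG with the site at that U, and 9 Promoter sites (1.37%) and 2 5'UTR sites (1.47%) had them, beside 2.33% of all sites. For all 3 sets of letters the share of all listed sites lay inside the intervals of the Promoter and 5'UTR shares at the listed base. Against coding genes only, the Promoter share with TRUB1 letters was above that of introns (0.389%) by 0.983 points (0.306 to 2.2). With PUS7 letters it was above that of exons (2.72%) by 1.85 points (0.252 to 3.84). The other listed-base differences of both annotations from exons and introns had intervals that include 0.

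Sites with these letters had levels across the range. CENPS-CORT, a read-through of the kinetochore gene CENPS, had the TRUB1 letters and 14 deletions in 67 reads (20.9%, 11.9 to 32.6) in the context gaagtTcaaac. PABPC4, a cytoplasmic poly(A)-binding protein, had them as well, with 24 in 163 (14.7%, 9.67 to 21.1). ALG13 had them in tgtgtTctaca. In the 5'UTR set the only site with these letters at the listed base was that of FBXO5, an inhibitor of the anaphase-promoting complex, with 4 in 60 (6.7%, 1.85 to 16.2) in aaagtTctacc.

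With the PUS7 letters at the listed base the highest Promoter sites were ARMC9, a ciliary protein, and MON2, of endosome traffic, both with 4 deletions in 19 reads (21.1%, 6.05 to 45.6), in attttTaacaa and gtgttTaaaga. Among the 5'UTR sites the highest was DPP4, a membrane peptidase, with 4 in 23 (17.4%, 4.95 to 38.8) in caattTaacga, and MIPOL1 had 5 in 38 (13.2%). For the PUS1 letters SNX10 (atgaaTagacg, 22.2%) led the Promoter sites. With so few reads at each of these sites their levels cannot be ranked.

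The letters GUAAG or GUGAG with the site at the first U, which begin many introns, were looked at after the levels had been seen. They were found at 11 Promoter sites (1.68%, 0.84 to 2.98) and at 0 of 136 5'UTR sites, which allows a share of up to 2.21%, beside 0.985% of all listed sites and 1.34% of introns. The highest were SLC25A11 (gccggTgagtt, 44.4%) and EIF4G1, the scaffold of the cap-binding complex, with 13 deletions in 32 reads (40.6%, 23.7 to 59.4) in tacggTgagag. Whether these bases begin an intron was not tested.

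Inside tRNA genes lay 10 of 656 Promoter sites (1.52%, 0.733 to 2.79) and 0 of 136 5'UTR sites, which allows up to 2.21%, a limit above the Promoter share. The same share was 0.642% over all listed sites, 0.0545% in exons and 0.0508% in introns of coding genes. The genes named for them were CFAP418, HJV, NDUFS7, HMGN4, NCOA7, OR1F1, SHF, KNL1, CTNNA3 and DPP9. Apart from CFAP418 at 46.2%, levels ran from 5.1% for DPP9 to 19.3% for HJV (11 of 57, 10.0 to 31.9). These contexts show the TΨC arm that most of these share, with the listed uridine in capitals.
HMGN4, inside TRR-ACG1-2: caggtTcgact
OR1F1, inside TRP-TGG3-5: cgggtTcaaat
SHF, inside TRH-GTG1-9: tcggtTcgaat
CTNNA3, inside TRS-TGA1-1: caggtTcgaac
KNL1, inside TRS-GCT4-2: gtgggTtcgaa
HJV, inside TRG-TCC2-1: ggtggTatagt
The first 4 have the TRUB1 letters at the listed base, the KNL1 site has them at the next uridine of its run, and the HJV site, which shares its context with that of DPP9, has none. The HMGN4 site had 13 deletions in 99 reads (13.1%, 7.18 to 21.4) and the CTNNA3 site 21 in 306 (6.9%, 4.3 to 10.3). Inside the 5S ribosomal RNA pseudogene RNA5SP216 the Promoter site named for HINT3 had 19 in 124 (15.3%, 9.48 to 22.9).

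Contexts listed more than once made up 74 Promoter sites (11.3%) and 10 5'UTR sites (7.35%), beside 12.4% of all listed sites and 11.9% of Intron sites. Of these repeated contexts, 34 and 3 shared the context with a site of a non-coding gene type, and 10 and 0 with a structured RNA type such as snoRNA, snRNA or rRNA. The context listed most often, 15 times, was that of MED13 and GNB1 (ttttcTttttt).

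By function, most of the gene groups had a share of genes with a member site above the 3.29% of all coding genes, as a description with no test. The highest shares were in the nuclear transport, translation initiation, ribosomal protein and splicing groups. Of 174 ribosomal protein genes 18 (10.3%) had a member site, of 56 translation initiation genes 7 (12.5%), of 142 splicing genes 14 (9.86%) and of 55 nuclear transport genes 7 (12.7%). At the other end were zinc finger genes, with 11 of 601 (1.83%), and solute carriers, with 9 of 386 (2.33%). A listed site of any annotation was found in 42 of 55 nuclear transport, 29 of 56 translation initiation and 65 of 142 splicing genes. It was found in 58 of 174 ribosomal protein, 70 of 129 chromatin, 159 of 601 zinc finger and 89 of 386 solute carrier genes. The same share was not taken over all coding genes, so these counts cannot be set against a base rate. A gene can be listed only with enough reads over it, and the part of gene expression in these shares was not tested. The median level of the sites was 9.0% for ribosomal proteins, 9.4% for translation initiation, 10.0% for splicing and 10.2% for nuclear transport, beside the 10.8% and 9.65% of all members.

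Ribosomal protein genes had 16 Promoter sites and 4 5'UTR sites, at 5.1% to 19.4%. The highest were neighbouring 5'UTR bases of MRPS22, of the mitochondrial small subunit, at 19.4% (7 of 36) and 18.9% (7 of 37), followed by RPL22 at 15.8% (3 of 19). RPL5, which carries 5S ribosomal RNA into the large subunit, had 13 in 213 (6.1%, 3.29 to 10.2), and the 5'UTR site of RPS19 had 7 in 117 (6.0%, 2.44 to 11.9). Ribosomal protein genes have many processed pseudogenes, and the placing of reads that match several copies was not stated.

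Among translation initiation genes EIF4G1 stood highest, followed by EIF4E2 and by EIF4A2, the RNA helicase of the cap-binding complex (13%, 3 of 23). Nuclear transport genes had 8 Promoter sites and no 5'UTR site. KPNA6, an importin alpha, had 7 deletions in 18 reads (38.9%, 17.3 to 64.3), RANGAP1, which activates the GTPase of Ran, had 5 in 16 (31.2%, 11.0 to 58.7), and NUP210L, a nuclear pore protein, had 4 in 16 (25%).

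Splicing genes had 12 Promoter and 3 5'UTR sites. RBM14 and RBM26, both RNA-binding proteins, had 4 deletions in 24 reads (16.7%, 4.74 to 37.4), RBM11 had 7 in 53 (13.2%) and SNRPB2, of the U2 particle, had 7 in 70 (10.0%). The 5'UTR sites of this group were in RBM6 and in U2AF1, which recognises the end of the intron (7.5%, 4 of 53). The RBM14 site given here and a 5'UTR site of RBM6 lay on the strand opposite to the gene. Chromatin genes had 5 Promoter and 5 5'UTR sites in 7 of 129 genes (5.43%), led by BRD2 and by the remodeller CHD8 (18.8%, 3 of 16). KMT2D, a histone H3 methyltransferase, had a better covered site with 18 in 340 (5.3%, 3.17 to 8.24).

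Of the 142 cell cycle and replication genes 8 (5.63%) had a site, with CDC73 of the Paf1 complex, which the symbol rule placed here, at 35.3% (6 of 17, 14.2 to 61.7) and ORC2, of the origin recognition complex, at 20% (6 of 30). Ubiquitin genes gave 17 of 352 (4.83%), led by the deubiquitinase USP31 at 26.7% (4 of 15) and the F-box protein FBXL16 at 20.8% (5 of 24). The 5 genes of mitochondrial respiration (4.46%) included NDUFAF6, an assembly factor of complex I, at 22.7% (5 of 22). Chaperone and proteasome genes gave 6 of 135 (4.44%), with HSP90AA1 highest at 20% (3 of 15) on the opposite strand. RNA helicases gave 3 of 54 (5.56%), small GTPases 4 of 108 (3.7%) and transcription initiation genes 3 of 108 (2.78%), the last led by MED12 of the Mediator complex at 15.8% (6 of 38). Solute carriers were led by SLC25A11 and by the zinc transporter SLC39A10, which had 8 in 24 (33.3%, 15.6 to 55.3) at 17 nt before a start.

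Of the 792 sites, 778 had a p-value of 0 and 14 a p-value above 0 in the authors' deposited table. Those above 0 ran from 8.47e-103 at CFAP418 to 3.49e-05 at ENSG00000254692 in the authors' deposited table, and included KNL1 (1.23e-77), CTNNA3 (5.25e-38), CDK5RAP2 (1.86e-27), PFN1 (8.31e-13) and RACK1 (2.2e-09). No source used here names the test.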

How the data were processed

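The 16 libraries were grouped by their titles, and the only table used holds sites of the HEK293T map with 1 value per site, pooled over libraries that the sources used here do not name. The build is hg38, per the submitters' processing notes. Neither the aligner nor the deletion caller or annotation tool is named.

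The authors deposited the deletion level as a fraction, printed here in percent, and the coverage as a read count. Each p-value was taken from the authors' deposited table, with no stated test. Listed positions, strands, contexts, annotations and gene types were used as deposited.

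Deletion reads were recovered as level times coverage, which gave a whole number at each of the 792 members to within 0.0005 of the level. At coverage of 1000 or more, which 1 site had, this check cannot fail and the product is approximate. Single shares have 95% Clopper-Pearson intervals and differences of shares have 95% Newcombe intervals. Both cover counting error only, since sites of 1 gene share their source and no site has replicates. No test of significance was run. A share with a count of 0 was given the limit that 3 counts allow.

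Symbols were matched to RefSeq (GRCh38.p14) by symbol or else by a unique synonym, which matched 636 of 656 Promoter sites and 134 of 136 5'UTR sites. Distances are to the nearest RefSeq start of the gene, including its outer boundary, and no exon structure was used. Motif letters and intervals were tested on simulated data with Python 3.11.15, pandas 2.3.3, numpy 2.4.6 and scipy 1.17.1. The members and gene lists were chosen with earlier results of these data known. Named sites are the 10 of highest level and the 5 of most deletion reads in each annotation, genes with 3 or more sites or both annotations, and the 3 highest sites of each motif and each gene group (lists by symbol prefix). PABPC4, HINT3, RPL5, RPS19, KMT2D, SNRPB2, U2AF1, RBM6, the sites in promoter windows, on the opposite strand or in tRNA genes, and those with GUAAG or GUGAG were named after their values were seen. A few sites that this rule names are not reported here. Alternatives were a coverage of at least 60, at least 4 deletion reads, 1 site per gene, contexts listed once, sites outside small RNA genes, and adjacent bases counted once.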

Additional observations from a re-analysis of the deposited data

How the results depend on the processing

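Of 8 medians, means and shares recomputed under 6 alternatives (48 values), 39 stayed inside the 95% interval of the reported value and 9 did not. With a coverage of at least 60 the median level was 6.7% for Promoter and 6.75% for 5'UTR, levels of at least 20% were found at 1.42% and 0.0%, and the mean GC content of the 5'UTR flanks was 53.2%. The lowest level that can be listed is higher at low coverage, but whether this accounts for the lower levels was not tested. For GC the cause was not tested either. With at least 4 deletion reads the Promoter median was 12.2%, the share of at least 20% was 24.6% and the mean GC content was 47.8%. With contexts listed once the mean GC content of Promoter flanks was 48.1%, the cause not tested. Outside small RNA genes, an alternative added after seeing the data for CpG, the difference in CpG between opposite and gene strand within 1000 nt of a start was 17.5 points with an interval reaching below 0. Counting adjacent bases once, also chosen after seeing the data, left all 8 inside their intervals. The exact interval of the level began above 1% at all 792 sites and at 100% of all listed sites, which the limits of the list fix in advance. It began above 5% at 191 sites, being 24.8% of Promoter and 20.6% of 5'UTR sites, beside 29.8% of all listed sites. To RefSeq 661 genes were matched, or 657 by symbol only.

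No paired analysis was possible because the table holds pooled values with no library in any column, and leaving out a replicate was not possible for the same reason. Depth is the main limit: with 3 deletion reads at 254 Promoter and 55 5'UTR sites, single levels are wide in their intervals, and sites under 15 reads or 5.0% are not listed.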
